A study of Mus musculus with 3 samples.

Results

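The genes described here are 38 mouse genes of the DNA damage response and DNA repair, out of 6795 genes with a probe of their own on the arrays. They were found by a symbol pattern, which takes members of the Xrcc, Ercc, Rad, Msh, Mlh, Pms, Brca, Fanc, Parp, Trp53, Mdm, Chek and Apex name families and a few single genes such as Ung, Blm, Wrn, Nbn and Mgmt. Xrcc6 was left out. The pattern also takes in genes not assigned here to one repair route, namely the cohesin subunit gene Rad21, Trp53rkb and 3 Parp genes, which were kept and are described together. Total RNA was compared on 3 spotted 2-colour arrays of one print. Each array set wild-type thymocytes purified as CD69hi, from a source labelled B6, against the whole unseparated thymocyte pool of Zap70-/- mice, a genotype without the kinase that passes on the T cell receptor signal. CD69 is a surface protein that thymocytes raise after such a signal, and the titles call the Zap70-/- RNA CD69lo. The sources used here give no age, sex or number of mice. Genotype and purification differ together between the RNAs, so their parts in any ratio cannot be told apart. In bulk RNA, fewer cells of a type and less RNA per cell cannot be told apart either.

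Cells meet DNA damage with separate repair routes. Base excision repair replaces single damaged bases, nucleotide excision repair cuts out a stretch around a bulky lesion, and mismatch repair corrects copying errors. Broken chromosomes are joined end to end or are mended by homologous recombination, which copies an intact sister chromatid and therefore works after DNA has been copied. Checkpoint kinases and the factor p53 hold the cell cycle or start cell death when damage persists. In the thymus, end joining also completes the rearrangement of T cell receptor genes, and the immature thymocyte pool holds dividing cells.

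The values are log2 ratios read as CD69hi over Zap70-/-, so a value below 0 means less of that RNA in the CD69hi sample. On arrays 1 and 2 the CD69hi RNA was the Cy3 channel and on array 3 the Cy5 channel, and arrays 1 and 2 were turned to match. The submitters do not state the direction, which is therefore uncertain, and with the opposite reading lower and higher would change places throughout. The titles name CD69hi first for arrays 1 and 2 and CD69lo first for array 3. Taken as a ratio, that order is the opposite of the reading used. The deposited values were read as Cy5 over Cy3 and turned by the labelled dyes. Rag1, a gene of receptor rearrangement in immature cells, read -1.37, -1.42 and -0.77 on arrays 1 to 3 when turned this way. It was looked up after the values were seen and does not settle the direction. Cd69 and Zap70 themselves were not analysed here, and ratios give no level, so neither the sort nor the thymocyte identity was checked. Nothing in the labels says that the arrays came from separate mice, so p-values measure the spread between arrays, which may be technical, and the small number of arrays limits the precision.

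Of the 38 genes, 4 were lower in CD69hi RNA, 1 was higher and 33 did not pass the threshold, an adjusted p of at most 0.05 in a limma fit over all 8905 features. Rad51ap1, Brca1, Rad21 and Trp53inp1 fell and Parp14 rose. Calls made up 13.2% of the members and 6.94% of all features. In the lower direction the shares were 10.5% and 2.81%, and in the higher direction 2.63% and 4.13%. The median log2 ratio over the members was -0.13, against 0.01 over all features. Of the members, 15 lay below 0 on every array, 8 above 0 on every array and 15 had mixed signs. Over all features, 22.7% lay below 0 on every array and 24.3% above. With 5 calls, the members' share rests on few genes, and no test of the list was made.

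**Figure D1:**
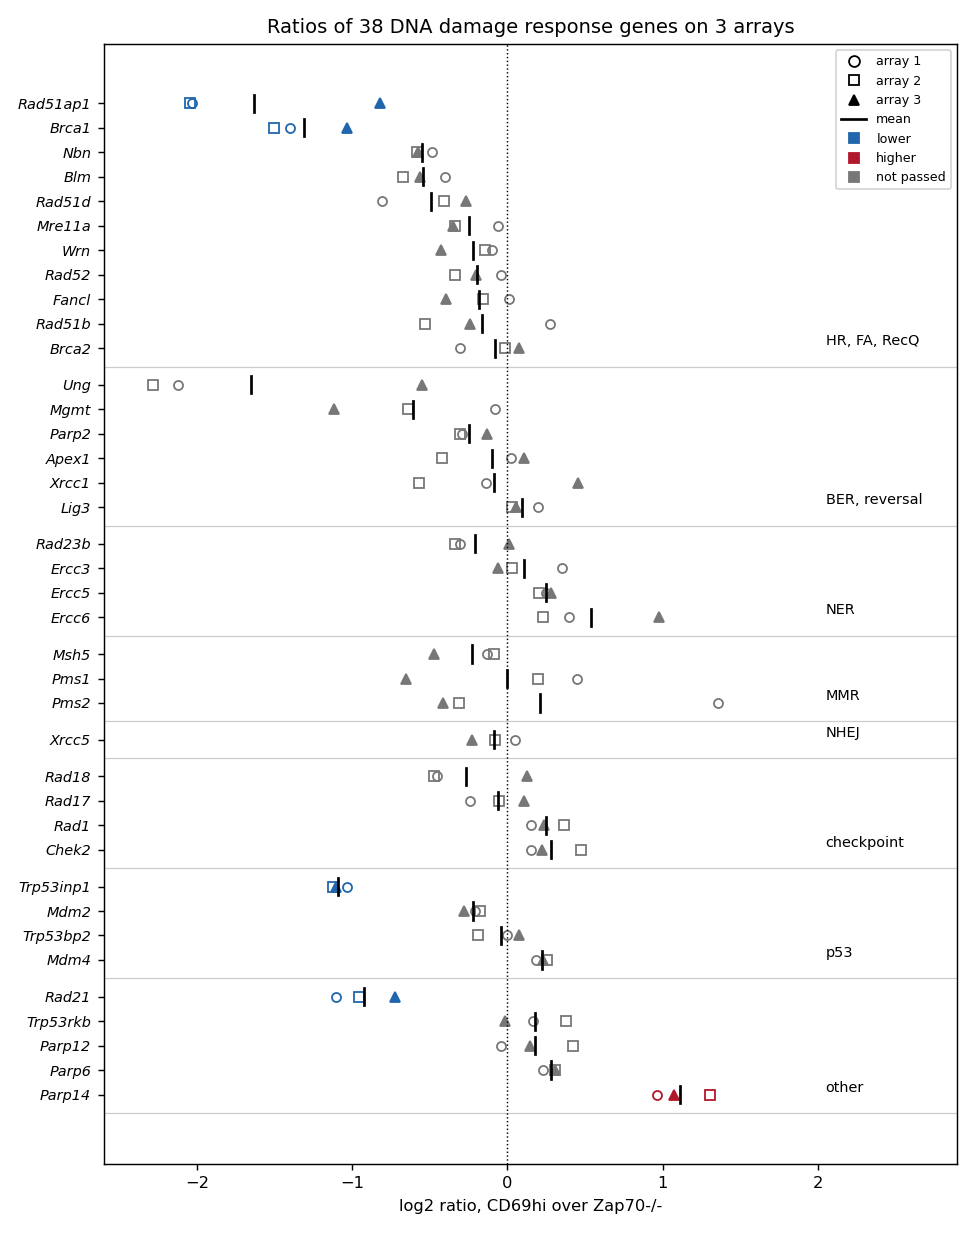
Log2 ratio of CD69hi over Zap70-/- RNA (x axis) for the 38 genes (y axis, by role) on arrays 1, 2 and 3, with a vertical bar at the mean. The 11 recombination, Fanconi anaemia and RecQ genes (HR, FA, RecQ) all have means below 0, Rad51ap1 and Ung lie nearer to 0 on array 3 than on the other arrays, and Parp14 stands alone above 0.9 on every array.

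RefSeq promoters (GRCm38.p6) were at hand for 31 of the 38 genes, among them Brca1 and Rad51ap1, the recombination genes that fell. Their 250 bases before the start site are shown because genes that fell together can be compared there for elements of cell cycle promoters. Capitals mark the CCAAT box, printed as CCAAT, or as ATTGG where the box lies on the opposite strand.
Brca1, chr11:101551956-101552205, minus strand: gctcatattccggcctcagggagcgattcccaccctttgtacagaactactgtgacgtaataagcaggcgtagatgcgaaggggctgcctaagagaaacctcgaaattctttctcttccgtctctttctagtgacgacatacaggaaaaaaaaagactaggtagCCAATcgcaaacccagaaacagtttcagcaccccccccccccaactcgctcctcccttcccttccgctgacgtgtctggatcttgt
Rad51ap1, chr6:126939588-126939837, minus strand: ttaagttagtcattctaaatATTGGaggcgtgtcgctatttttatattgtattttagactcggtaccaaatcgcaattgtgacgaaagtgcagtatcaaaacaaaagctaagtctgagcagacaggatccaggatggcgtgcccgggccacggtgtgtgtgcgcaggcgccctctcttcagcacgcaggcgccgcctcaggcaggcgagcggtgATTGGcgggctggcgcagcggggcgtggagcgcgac
The Brca1 window held 1 CCAAT box, starting 86 bases before the start site, and the Rad51ap1 window held 2, starting 230 and 36 bases before it. Over all 32851 promoter windows of this length, 33.8% held at least 1 CCAAT box on either strand, against 44.4% of the 36 member windows. Neither window held, on either strand, the E2F-type motif TTTNNCGC (4.28% of all windows), the CHR motif TTTGAA (16% of all windows), an interferon response element (2.98%) or a p53 half-site (7.13%). None of these motifs contains the CCAAT box or another of them. The E2F-type motif was found in 5 of the 36 member windows (13.9%), those of Brca2, Chek2, Ercc5, Mdm2 and Msh5, none of which passed the test. Promoters of the called genes Rad21, Trp53inp1 and Parp14 were not at hand, so these could not be searched. A match is a run of letters and not a shown binding site.

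Homologous recombination, the Fanconi anaemia pathway and the RecQ helicases were represented by 11 genes. All 11 had a mean below 0 and 8 were below 0 on every array, with a median of -0.25, and 2 of them passed. The shares were 72.7% below 0 on every array and 18.2% lower, against 22.7% and 2.81% of all features. Over all 8905 features, 4328 had a mean below 0. Rad51ap1, which acts in homologous recombination, had log2 ratios of -2.03, -2.04 and -0.82 on arrays 1, 2 and 3. Arrays 1 and 2 were alike and array 3 gave a smaller difference of the same sign. The mean was -1.63 ± 0.70 (SD, n = 3), or 3.10-fold higher in Zap70-/- RNA (adjusted p = 0.046). Brca1, which recruits the recombination machinery to breaks, read -1.40, -1.50 and -1.04. Its 3 arrays were close together, with a mean of -1.31 ± 0.25, or 2.48-fold higher in Zap70-/- RNA (adjusted p = 0.022). Brca2, which also acts in homologous recombination, read -0.30, -0.01 and 0.08 and did not pass (adjusted p = 0.78, 95% interval of the mean -0.45 to 0.29). The difference between Brca1 and Brca2 was not tested.

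The helicase and nuclease genes of this group had smaller ratios. Nbn, which belongs to the break-sensing complex with MRE11, read -0.49, -0.58 and -0.58 and gave a mean of -0.55 ± 0.05 (adjusted p = 0.077). Mre11a, the nuclease gene of that complex, read -0.06, -0.34 and -0.35 (adjusted p = 0.35). Both genes lay below 0 on each array. Blm and Wrn encode RecQ helicases that unwind recombination intermediates. Blm read -0.40, -0.67 and -0.56 (adjusted p = 0.089) and Wrn -0.10, -0.15 and -0.43 (adjusted p = 0.40). Rad51d read -0.81, -0.41 and -0.27 (adjusted p = 0.16), while Rad51b was above 0 on array 1 (0.28) and below it on arrays 2 and 3 (-0.53 and -0.24). Rad52 (mean -0.20) and the ubiquitin ligase gene Fancl of the Fanconi pathway (mean -0.18) were nearer to 0. The 95% intervals of these 9 genes that did not pass, Brca2 included, ran from -0.91 at the lowest to 0.35 at the highest, so differences of 2-fold or more lay outside them. The same held for the intervals of 6962 of all 8905 features.

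In base excision repair and direct reversal, 0 of 6 genes passed in limma, and 2, both lower, reached 0.05 before adjustment, as did 23.4% of all features. Ung, the glycosylase that removes uracil from DNA, had the lowest mean of all 38 members at -1.65 ± 0.95 (SD, n = 3). It read -2.12, -2.28 and -0.55, so every array was below 0 but array 3 stood far from the other arrays. Its adjusted p was 0.079 with all arrays, 0.24 without array 1, 0.23 without array 2 and 0.026 without array 3. Mgmt, which takes alkyl groups off guanine, read -0.08, -0.64 and -1.11 (adjusted p = 0.21). Parp2, a sensor of strand breaks, read -0.29, -0.31 and -0.13 (adjusted p = 0.33). The apurinic site endonuclease gene Apex1 and the ligase gene Lig3 had means of -0.10 and 0.09. Xrcc1, the scaffold that holds LIG3, was the 1 member with more than 1 probe. Its probes read -0.41 and 0.25 on average and neither passed when fitted alone (adjusted p = 0.27 and 0.73).

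Nucleotide excision repair had 4 measured genes, of which 0 passed in limma and 1 reached 0.05 before adjustment, a share of 25% against the 23.4% of all features. That gene was Ercc6, whose product acts when RNA polymerase stalls at a lesion. It read 0.40, 0.23 and 0.98, above 0 on each array, with a mean of 0.54 ± 0.39 (adjusted p = 0.19). Ercc5, an endonuclease gene, read 0.25, 0.21 and 0.28, a narrow range (adjusted p = 0.31). Ercc3, a helicase subunit of the factor TFIIH, averaged 0.11, and Rad23b, a partner of the damage sensor XPC, averaged -0.21. In mismatch repair 0 of 3 genes passed, and 0 reached 0.05 before adjustment in limma. Pms2 read 1.36 on array 1 and -0.31 and -0.41 on arrays 2 and 3, a disagreement between arrays that left its mean at 0.21 ± 0.99. Pms1 also changed sign, at 0.45, 0.20 and -0.65, while the meiotic relative Msh5 read -0.13, -0.09 and -0.47.

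Xrcc5 encodes the KU80 chain that holds broken ends with KU70, the product of Xrcc6, and was the 1 end-joining gene among the members. It read 0.05, -0.08 and -0.23, around 0 on every array, with a mean of -0.09 ± 0.14 and a 95% interval of -0.43 to 0.26 (adjusted p = 0.74). The probe for its partner Xrcc6 read -2.67, -2.69 and -1.87, a mean of -2.41 ± 0.47 (adjusted p = 0.012). Xrcc6 read lower than Xrcc5 on every array. The 95% interval of Xrcc6, -2.97 to -1.85, lay wholly below that of Xrcc5. The mean of Xrcc6 ranked 16 from the lowest among all 8905 features, so lying below Xrcc5 is not particular to this pair. The difference between Xrcc5 and Xrcc6 was not tested. Prkdc, the kinase that KU recruits to the ends, read 0.08, 0.18 and -0.03, close to Xrcc5 (adjusted p = 0.76).

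Checkpoint and post-replication genes showed small ratios. In limma 0 of 4 passed, and 0 reached 0.05 before adjustment. Chek2, a kinase that relays the signal of broken DNA, read 0.15, 0.47 and 0.22 (adjusted p = 0.30). Rad1, a part of the sliding clamp that marks damage, read 0.15, 0.37 and 0.23, and its loader Rad17 read -0.24, -0.06 and 0.11. Rad18, a ubiquitin ligase for damaged replication forks, read -0.46, -0.47 and 0.13. Chek2 and Rad1 were above 0 on each array and the other two had mixed signs. All 4 genes had 95% intervals inside a 2-fold difference in either direction, as did 6962 of all 8905 features.

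Among p53 and its regulators, 1 of 4 genes fell, a share of 25% against 2.81% of all features. Trp53inp1, a p53-inducible nuclear protein that promotes cell death and autophagy, read -1.04, -1.12 and -1.11. The arrays were close together, and the mean was -1.09 ± 0.05 (SD, n = 3), or 2.13-fold higher in Zap70-/- RNA (adjusted p = 0.020). Mdm2, the ubiquitin ligase that removes p53 and is itself induced by it, read -0.21, -0.18 and -0.28 (adjusted p = 0.36). Its relative Mdm4, which blocks p53 activity, read 0.19, 0.26 and 0.23 (adjusted p = 0.35). Mdm2 and Mdm4 did not overlap and lay on opposite sides of 0, but neither passed and their difference was not tested. Trp53bp2 averaged -0.04.

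Of the 5 genes not assigned to one repair route, 1 fell and 1 rose. Each share was 20%, against 2.81% lower and 4.13% higher over all features. Rad21, which encodes a subunit of the cohesin ring that holds sister chromatids together and also acts in break repair, read -1.10, -0.95 and -0.72, a mean of -0.93 ± 0.19 (adjusted p = 0.035). The ring's other measured subunit genes had smaller ratios, with Smc1a at -0.19, -0.34 and -0.70 and Smc3 at -0.20, -0.06 and -0.40, and neither passed (adjusted p = 0.21 and 0.40). Parp14, an ADP-ribosyltransferase known from interleukin-4 and interferon responses, read 0.96, 1.31 and 1.07. It was at least 0.9 on every array, with a mean of 1.11 ± 0.18, or 2.16-fold higher in CD69hi RNA (adjusted p = 0.024). Its relatives Parp12 (mean 0.18, adjusted p = 0.54) and Parp6 (mean 0.28, adjusted p = 0.26) did not pass, and Trp53rkb averaged 0.18. Markers of macrophages, dendritic cells and granulocytes mostly moved in the same direction as Parp14, with 8 of 15 higher and 1 lower. These were 53.3% and 6.67%, against 4.13% and 2.81% of all features. The ratios of these markers ran from -1.98 for S100a9 to 2.51 for Lyz2, with a median of 1.05. Of 4 B cell markers 0 passed, with 3 means above 0 and 1 below. Their ratios ran from -0.35 to 1.40, with a median of 0.42. The part of either marker list in the Parp14 ratio was not tested.

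**Figure D2:**
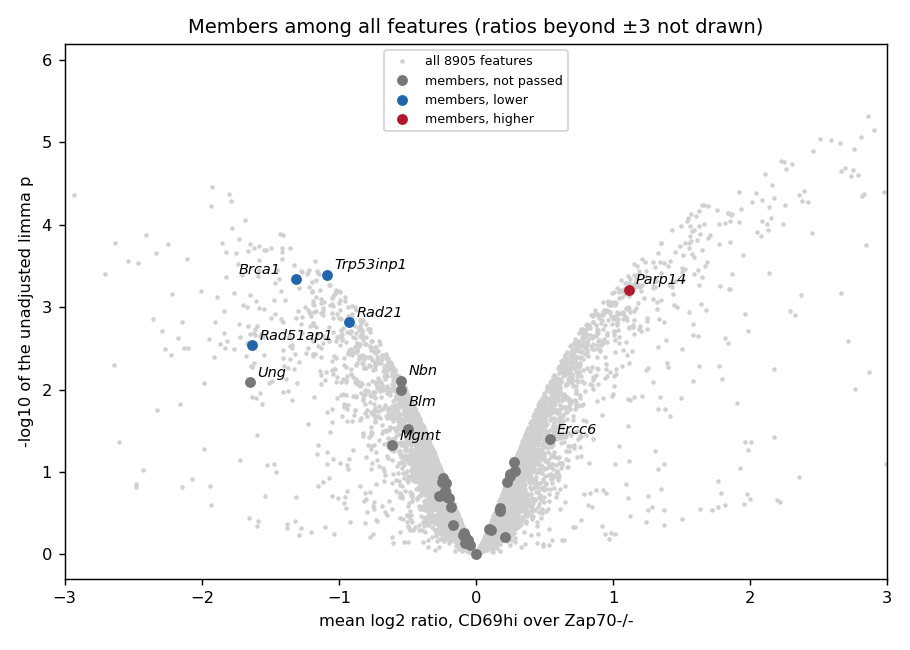
Mean log2 ratio of CD69hi over Zap70-/- RNA (x axis) against -log10 of the unadjusted limma p (y axis) for all features (grey) and the 38 members (coloured by call). Rad51ap1 and Ung have the lowest means of the members, at -1.63 and -1.65, and Ung sits beneath Rad51ap1 because its arrays differed more.

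Further genes of the pathway were taken from 3 lists that the name pattern does not reach, with 71 genes measured in all. Of these 7 were lower, 2 were higher and 62 did not pass, and the median was -0.12, against 0.01 over all features. The shares were 9.86% lower and 2.82% higher, against 2.81% and 4.13% of all features. Without array 1 or array 2, 0 of the 71 were lower in limma (19 and 17 reached 0.05 before adjustment in either direction). In these fits 201 and 119 of all features were called in either direction. Without array 3, 14 of the 71 were lower, and 692 of all features were called in either direction. In damage signalling and the checkpoint, 1 of 12 genes fell and 0 rose, with all 12 means below 0 and a median of -0.48. The share that fell was 8.33%, against 2.81% of all features, and 4328 of all 8905 features had a mean below 0. Wee1, the kinase that holds back entry into mitosis, was the 1 that fell (-1.29 ± 0.27, SD, n = 3, adjusted p = 0.024). Rpa2, a subunit of the single-strand DNA binding complex, came next at -1.18 ± 0.49 and did not pass (adjusted p = 0.052).

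Among 40 repair enzymes and their partners, 4 fell and 0 rose, with a median of -0.04. The share that fell was 10%, against 2.81% of all features. The TFIIH subunit gene Gtf2h4 (-1.76 ± 0.50), the ligase gene Lig1 (-1.57 ± 0.61) and the replicative polymerase genes Pole (-1.18 ± 0.28) and Pold1 (-1.07 ± 0.31) were the 4 that fell (adjusted p from 0.025 to 0.040). TFIIH is the complex of the member Ercc3, which averaged 0.11. LIG1 seals nicks in replication as well as repair, while Lig3 averaged 0.09. The highest means of this list, Polm at 2.17 ± 2.01 and Ddb1 at 2.01 ± 1.93, came from arrays that disagreed. Polm read 4.23, 0.23 and 2.06 and Ddb1 3.68, -0.10 and 2.44, and neither passed with 3 arrays (adjusted p = 0.18 and 0.20), while both passed without array 2 (adjusted p = 0.042 and 0.018) and neither did without array 1 (0.37 and 0.50) or array 3 (0.25 and 0.31).

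Of 21 genes listed here as p53 targets, 2 rose and 2 fell, leaving 17 that did not pass, and the list's median was -0.02. Each share was 9.52%, against 4.13% higher and 2.81% lower over all features. Gadd45b (2.14 ± 0.55, SD, n = 3, adjusted p = 0.020) and Gadd45a (0.88 ± 0.22, adjusted p = 0.041), stress-induced growth arrest genes that signals other than p53 can induce, rose. Psrc1, a spindle protein gene (-1.70 ± 0.53, adjusted p = 0.029), and the death gene Bid (-1.31 ± 0.41, adjusted p = 0.033) fell. Cdkn1a, the cell cycle inhibitor best known as a p53 target, read 0.12, -0.004 and 0.68 and did not pass (adjusted p = 0.45). Cdkn1a was looked up after the values were seen.

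**Figure D3:**
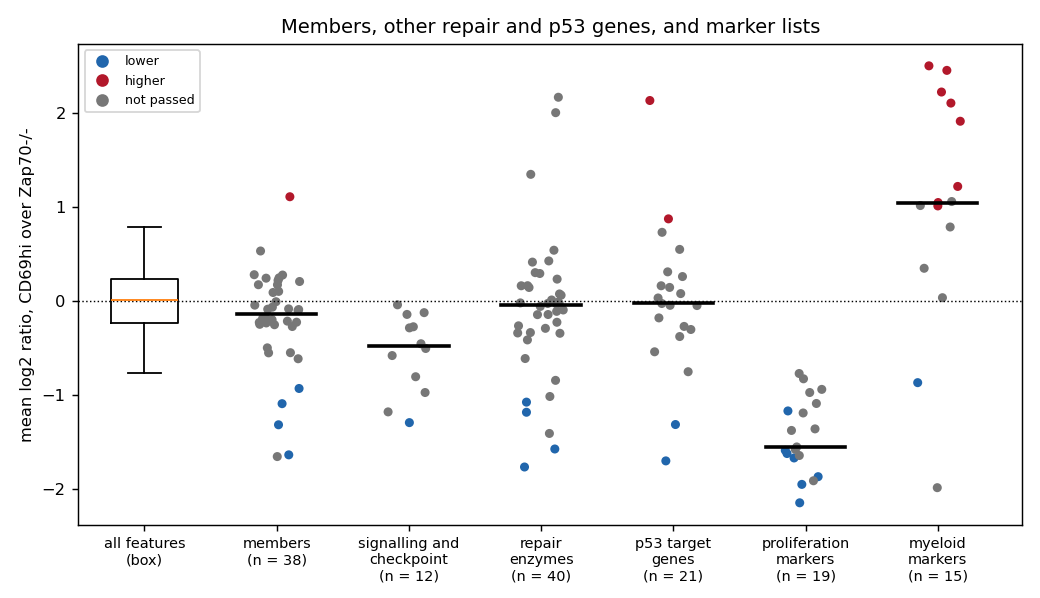
Mean log2 ratio of CD69hi over Zap70-/- RNA (y axis) for the members, for 3 lists of further repair and p53 genes and for proliferation and myeloid markers, 1 point a gene coloured by call, with a black line at each list's median. The box for all features spans the quartiles, with whiskers at the 5th and 95th percentiles. The members centre near 0 with a lower tail, while the 19 proliferation markers all lie below -0.7.

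Proliferation markers moved in the same direction as the members that fell. Of 19 such markers, 7 were lower in CD69hi RNA (36.8%, against 2.81% of all features) and 0 higher. All 19 were below 0 on each array, and their median was -1.55. Their list medians were -1.57 and -1.91 on arrays 1 and 2 and -0.84 on array 3. All 19 were further below 0 in the mean of arrays 1 and 2 than on array 3, with a median gap of -1.09. Among the members this gap was -1.65 for Ung, -1.22 for Rad51ap1, -0.42 for Brca1 and -0.31 for Rad21. Xrcc1 (-0.81), Ercc6 (-0.66) and Rad18 (-0.59), which did not pass, had larger gaps than Brca1. In all, the gap was below 0 for 17 members and above 0 for 21. It was 0.03 for Trp53inp1 and 0.06 for Parp14, and its median over the members was 0.03. Array 3 is also the array with the dyes exchanged, so array and dye cannot be told apart in this gap. The part of dividing cells in the ratios of Rad51ap1, Brca1, Rad21 and Ung was not tested.

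All 5 calls ended without array 1 and also without array 2. Without array 1, 0 of 38 members passed in limma (9 reached 0.05 before adjustment), and the adjusted p of the 5 genes ran from 0.082 to 0.17. Without array 2, 0 passed (7 reached 0.05 before adjustment), with adjusted p from 0.12 to 0.23. All 5 kept their sign in both fits, which was fixed in advance because each had the same sign on every array. Calls over all features fell from 618 to 201 and 119 in these fits. Without array 3 the same 5 genes and Ung passed, among 692 calls over all features. Every array left then carried Cy3 on the CD69hi RNA. Rad21 and Rad51ap1 did not pass when the arrays were scaled to one spread (adjusted p = 0.078 and 0.091).

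**Figure D4:**
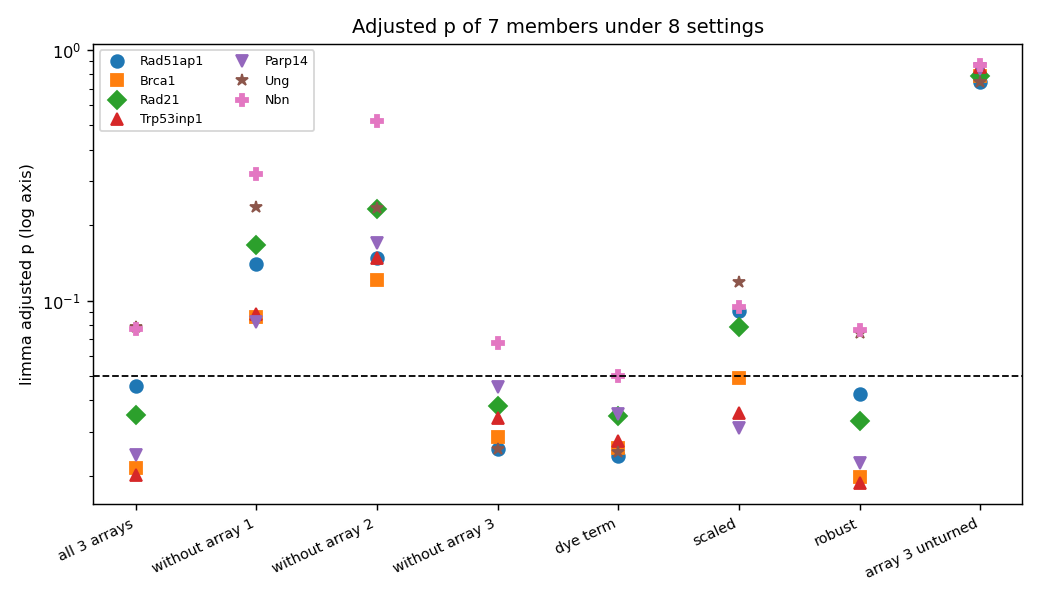
Limma adjusted p (y axis, log scale) of the 5 called members and of Ung and Nbn under 8 settings (x axis), with a dashed line at 0.05. The 5 called genes lie above the line without array 1, without array 2 and with array 3 left unturned.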

How the data were processed

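The deposited file holds 1 log ratio per probe and array for 9596 probes. The sources used here name no log base, background correction, normalization or spot filter. The deposited values were taken as log2 from their range (-9.40 to 6.53), which does not exclude a natural logarithm, under which the fold changes would be larger. Dim spots stayed in, since no intensities were used. Array medians lay within 0.005 of 0. Arrays 1 and 2 were multiplied by -1. Before this, array 3 correlated with arrays 1 and 2 at r = -0.25 and -0.40 over all probes, and arrays 1 and 2 with each other at 0.61.

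Gene names came from the platform annotation, and 7395 of 7486 probes with 1 symbol matched RefSeq (GRCm38.p6) by Entrez identifier. Probes were averaged per symbol, and the rest stood alone, giving 8905 features. Spotted cDNA can bind related transcripts, so families such as Parp are uncertain. Limma 3.58.1 (lmFit, eBayes, R 4.3.3) fitted 1 coefficient, two-sided, Benjamini-Hochberg adjusted over all features, and was tested on simulated data. There it recovered 24.8% of log2 changes of 1 and 68.6% of log2 changes of 2, with 22 false calls among 489. Real changes of 2-fold can therefore be missed. A ± is the SD over 3 arrays, and 95% intervals use limma's moderated error.

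The members and lists were chosen with earlier results of these data known. Named in full were all called members, the 2 largest ratios in each role, and up to 4 called genes, or 2 if none, in each further list. Other members are given in brief, and Rag1, Prkdc, Smc1a, Smc3, Rpa2, Polm, Ddb1, Cdkn1a, S100a9 and Lyz2 were added after seeing values.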

Additional observations from a re-analysis of the deposited data

How the results depend on the processing

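Both RNAs share each array, so every ratio is already a paired comparison within an array. The ratios were fitted as 1 group, and no further pairing was possible. Leaving out 1 array gave 0 to 5 members lower and 0 to 1 higher, a member median of -0.20 to -0.11, and 0 to 14 further pathway genes lower and 0 to 3 higher. With arrays scaled to one spread, 2 members and 1 further gene were lower. A dye term, which leaves 1 residual degree of freedom, gave 2 members higher (Ercc6 joined Parp14) and 14 further genes lower, and Ung and Nbn passed as well. With array 3 unturned, limma called 0 features, so the counts were 0 lower and 0 higher for members and further genes, with 0 members reaching 0.05 before adjustment, and the member median was -0.025. Robust shrinkage and fitting each probe alone changed the call of 0 of 38 members. No member with a call changed sign under these alternatives. Except with array 3 unturned, this was fixed in advance, since each called member had the same sign on every array. The causes of these shifts were not tested. In the fit with a dye term, the median absolute dye coefficient over all features was 0.19, against a median absolute ratio of 0.25. The main fit holds no dye term and its dye orders are unbalanced, so a dye effect would not cancel in its means. With 3 arrays and no spot intensities, missing the threshold does not show an unchanged gene.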
